A study of Mus musculus with 2 samples.

Results

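Genes of the MHC class I presentation machinery were followed in liver cells of a mouse induced to lose glutamine synthetase and of a control mouse. The 9 genes were taken by name, out of 32285 genes in the files: B2m, H2-K1, H2-D1, Tap1, Tap2, Tapbp, Psmb8, Psmb9 and Nlrc5. Both mice were 11 weeks old, carried Glulf/f alleles, had no tumours, and were sampled 2 weeks after infection. The control mouse had received AAV8-GFP, and the GS_KO mouse had received AAV8-Cre. After digestion with 0.3 mg/mL collagenase II, hepatocytes were used together with purified non-parenchymal cells in a 10x Genomics 5-prime single-cell library. In the labels the assay is called single-cell in one place and single-nucleus in another, and they do not settle which was loaded. The labels do not name the promoter that drives Cre or the strain background. AAV8 is known to reach mainly hepatocytes.

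Each library came from 1 mouse, so there is no replicate check and no test between conditions. Every interval below is a 95% interval for counting error only, and a difference between the libraries can be a difference between the mice, their handling or their treatment, which cannot be told apart.

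Class I molecules carry peptides from inside the cell to its surface, where CD8 T cells read them. A class I molecule is a heavy chain (H2-K1 or H2-D1 here) paired with beta-2 microglobulin (B2m). Peptides are cut by the proteasome, whose interferon-inducible catalytic subunits include Psmb8 and Psmb9, and are carried into the endoplasmic reticulum by the Tap1 and Tap2 transporter. Tapasin (Tapbp) holds the empty heavy chain beside that transporter, and Nlrc5 is a transactivator of class I genes. In liver, hepatocytes are known for low class I levels at rest, and Kupffer cells, the resident macrophages, present antigen.

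The genes were read in 4 sets of cell barcodes, by the number of unique molecular identifiers (UMIs) in each barcode, scaled to counts per 1000000 (CPM) of the set's summed counts. Small barcodes, of 200 to under 400 UMIs, numbered 116552 in the control and 143687 in GS_KO. Mid-size barcodes, of 500 to under 1000 UMIs, numbered 11989 and 10037, and large barcodes, of 1000 UMIs or more, 1703 and 1834. Kupffer-marked barcodes, with at least 500 UMIs and at least 4 summed UMIs of Clec4f, Vsig4, Cd5l, C1qa, C1qb and C1qc, numbered 191 and 1082. A minimum of 10000 cells is stated in the labels, while the files hold 166037 and 175937 barcodes, of which 13692 and 11871 had at least 500 UMIs. Median UMIs per barcode were 352 and 304, so equal size limits do not cut the libraries at the same place. Small barcodes are the bulk of all barcodes, and how much of their RNA is free RNA in empty droplets was not tested. In sums like these, fewer cells of a type and less RNA per cell cannot be told apart.

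The targeted gene followed the labels. Glul was at 113 CPM in control and 9.78 CPM in GS_KO in small barcodes, and at 124 and 31.5 CPM in large barcodes. In Kupffer-marked barcodes Glul stood at 109.8 and 96.9 CPM, from 14 and 74 UMIs. Albumin (Alb), made by hepatocytes, was at 41519 and 42165 CPM in small barcodes and still at 24311 and 18114 CPM in the Kupffer-marked barcodes, which therefore hold hepatocyte RNA too. All 6 Kupffer markers were detected in each set of both libraries. Their summed level was 107 CPM in the control and 644 CPM in GS_KO in small barcodes, 249 and 1652 CPM in mid-size barcodes, 78.8 and 498 CPM in large barcodes, and 10705 and 12741 CPM in the Kupffer-marked barcodes. The libraries share 8108 barcode sequences, of which 4816 are small barcodes in both, 48 mid-size in both, 1 large in both and 1 Kupffer-marked in both. Without every shared barcode sequence, the median log2 ratio of the 9 genes, given below for all barcodes, was 1.50 in small, 1.33 in mid-size, 1.23 in large and 0.94 in Kupffer-marked barcodes.

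Of the 9 genes, 7 lie in the class I and class II region of chromosome 17 (GENCODE M21 on GRCm38, which is mm10). H2-K1 (ENSMUSG00000061232) lies at chr17:33996017-34000347 on the minus strand and H2-D1 (ENSMUSG00000073411) at chr17:35262730-35267499 on the plus strand. Psmb9 (chr17:34181987-34187764, minus), Tap1 (chr17:34187553-34197225, plus), Psmb8 (chr17:34197721-34201454, plus) and Tap2 (chr17:34203527-34216321, plus) are neighbours, and Tapbp lies at chr17:33915899-33929292 (plus). B2m lies at chr2:122147686-122153083 (plus) and Nlrc5 at chr8:94434356-94527272 (plus). The annotated bodies of Psmb9 and Tap1 overlap by 212 bases on opposite strands. The use of strand in counting is not stated. Heavy chain genes are near-identical in places and differ between strains, so reads can be split or lost among them, and each heavy chain value carries that uncertainty.

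In large barcodes the log2 ratio of GS_KO over control was 1.19 (1.02 to 1.37) for H2-K1 and 1.64 (1.22 to 2.10) for H2-Q4. It was 0.27 (0.14 to 0.40) for H2-Q10 and 0.24 (0.15 to 0.32) for B2m. Any link of these ratios to sequence was not tested. Stretches before the start sites of H2-K1, H2-Q4, H2-Q10 and B2m are shown (H2-Q4 and H2-Q10 are other heavy chains). They are from RefSeq on GRCm38.p6, 5′ to 3′ on the gene's strand, and capitals mark matches to 4 motifs searched on both strands: the NF-kB consensus, an interferon-type motif (GAA and GAAA with 2 or 3 bases between them), TGACG and CCAAT.
H2-K1 at chr17:34000348-34000462, minus strand: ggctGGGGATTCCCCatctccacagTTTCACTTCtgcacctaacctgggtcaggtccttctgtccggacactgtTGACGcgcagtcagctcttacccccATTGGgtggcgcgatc
H2-Q4 at chr17:35379439-35379553, plus strand: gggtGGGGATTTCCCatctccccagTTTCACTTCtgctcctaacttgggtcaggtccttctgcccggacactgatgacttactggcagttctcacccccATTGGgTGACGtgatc
H2-Q10 at chr17:35469909-35470026, plus strand: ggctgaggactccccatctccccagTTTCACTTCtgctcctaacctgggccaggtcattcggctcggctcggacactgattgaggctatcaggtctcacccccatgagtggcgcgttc
B2m at chr2:122147538-122147642, plus strand: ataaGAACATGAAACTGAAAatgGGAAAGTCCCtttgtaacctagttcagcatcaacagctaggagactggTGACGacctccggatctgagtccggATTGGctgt

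Promoter windows were found for 7 of the 9 genes, with none for Tap2 and Nlrc5. In the 250 bases before the start, H2-K1, H2-D1 and B2m each held all 4 motifs, which 19 of 32851 promoter windows did (0.0578%). One by one, the NF-kB consensus was in 3.90% of windows, the interferon-type motif in 12.2%, TGACG in 17.8% and CCAAT in 33.8%. Tap1 and Psmb9, whose windows overlap by 275 bases on opposite strands, shared 1 TGACG and 1 CCAAT, which lie in that overlap. Tapbp held CCAAT, and Psmb8 held none of the 4 motifs. The windows of H2-D1, Tapbp, Psmb8 and Psmb9 lie within the gene bodies given above. Bases before the outermost annotated starts of those genes were not searched, so a missing motif holds for these windows only. The H2-Q10 stretch was 87.5% identical to that of H2-K1 over 112 aligned bases and kept the interferon-type motif, but not the other 3 motifs. H2-Q4 held all 4 and was 86.1% identical to H2-K1 over 115 bases. In the alignment it matched the NF-kB block of H2-K1 in 10 of 11 bases and the TGACG of H2-K1 in 4 of 5. Its own TGACG lies at another place, after ATTGG, which is CCAAT on the other strand. The H2-D1 window was 88.7% identical to the H2-K1 stretch and the same in all 4 motifs. These are matches of letters in these windows and no evidence of binding.

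All 9 genes stood higher in GS_KO than in the control in each of the 4 sets. In Kupffer-marked barcodes the interval included 0 for Tap1, Tap2, Tapbp and Nlrc5, with Tap2 at a log2 ratio of 0.02 (-1.13 to 1.65). At least 2-fold higher were 7 of 9 genes in small barcodes, against 13.2% of the 13688 genes counted, those with 20 UMIs or more over both libraries. In mid-size barcodes this held for 8 of 9 genes, against 15.6% of 12349. In large barcodes it held for 7 of 9, against 12.8% of 10192, and in Kupffer-marked barcodes for 5 of 9, against 12.1% of 6525. None of the 9 was at least 2-fold lower in any set, where 4.25%, 3.70%, 5.60% and 6.56% of genes were, in the same order. The median log2 ratio of the 9 genes was 1.50, 1.33, 1.21 and 1.08, and that of all those genes was -0.01, 0.15, 0.04 and -0.02. The 9 genes took 0.327% of UMIs in the control and 0.619% in GS_KO in small barcodes, 0.277% and 0.483% in mid-size barcodes, 0.148% and 0.236% in large barcodes, and 0.385% and 0.756% in Kupffer-marked barcodes.

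**Figure D1:**
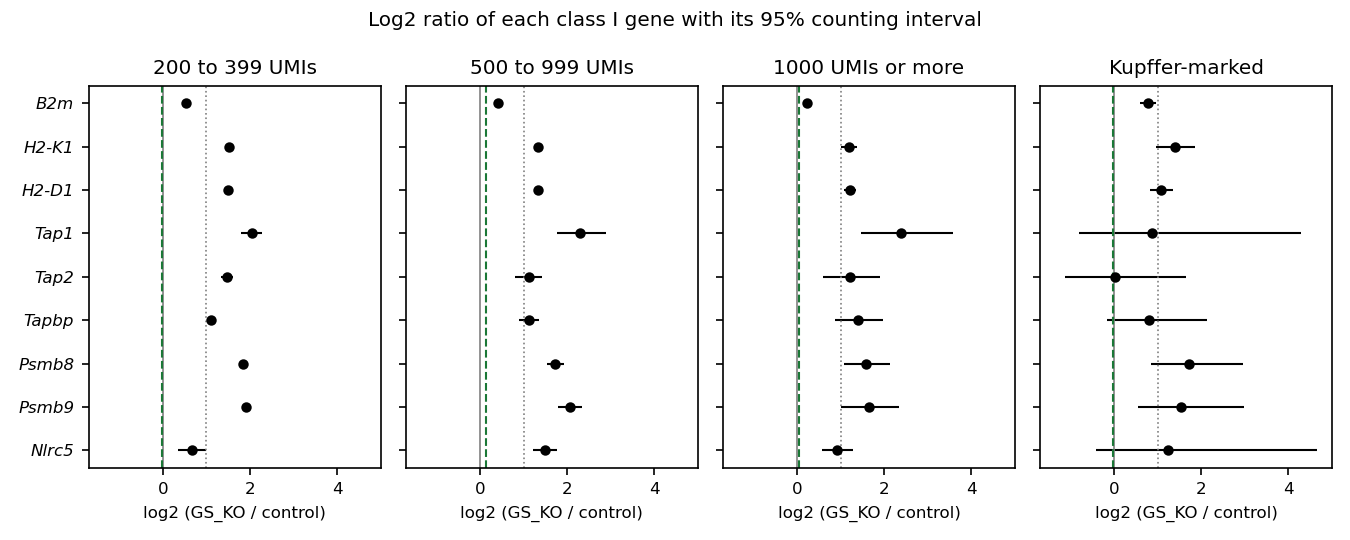
Log2 ratio of GS_KO over control for each of the 9 genes in the 4 sets of barcodes, with bars for the 95% counting interval. The solid line is at 0, the dotted line at 2-fold and the dashed green line at the median of all genes counted. B2m has the lowest ratio in the 3 size sets, and the Kupffer-marked set has the widest bars.

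The heavy chains moved together. H2-K1 was at 368 CPM in control and 1061 CPM in GS_KO in small barcodes, a log2 ratio of 1.53 (1.50 to 1.56). In large barcodes it was at 167 and 382 CPM, a log2 ratio of 1.19 (1.02 to 1.37). H2-D1 was at 535 and 1518 CPM in small barcodes, a log2 ratio of 1.50 (1.48 to 1.53), and at 247 and 573 CPM in large barcodes, a log2 ratio of 1.21 (1.07 to 1.36). In mid-size barcodes both had a log2 ratio of 1.33, from 308 to 774 CPM for H2-K1 and from 477 to 1201 CPM for H2-D1. Neither gene's counting intervals overlapped between the libraries in these 3 sets. Such intervals are narrow for abundant genes. Those of Alb in small barcodes did not overlap either (41454 to 41584 and 42104 to 42227 CPM), at a 1.02-fold difference.

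B2m, the light chain shared by class I molecules, differed least in the 3 size sets. It was at 2253 CPM in control and 3249 CPM in GS_KO in small barcodes, a log2 ratio of 0.53 (0.52 to 0.54). In mid-size barcodes it was at 1856 and 2469 CPM, a log2 ratio of 0.41 (0.38 to 0.44). In large barcodes it was at 953 and 1123 CPM, a log2 ratio of 0.24 (0.15 to 0.32), and among barcodes of 1500 UMIs or more the ratio was -0.0073. The interval of B2m did not overlap that of either heavy chain in any of the 3 size sets.

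Both transporter genes stood higher in GS_KO, and in small and mid-size barcodes Tap1 differed by more than Tap2. Tap1 was at 4.54 CPM in control and 18.7 CPM in GS_KO in small barcodes, a log2 ratio of 2.04 (1.80 to 2.29). In large barcodes it was at 4.58 and 25.0 CPM, from 10 and 61 UMIs, and the log2 ratio of 2.39 (1.47 to 3.58) was the highest of the 9 genes there. Tap2 was at 15.1 and 42.1 CPM in small barcodes, a log2 ratio of 1.48 (1.34 to 1.62), and at 13.3 and 31.1 CPM in large barcodes, a log2 ratio of 1.21 (0.59 to 1.90). The intervals of the Tap1 and Tap2 ratios do not overlap in small or mid-size barcodes but do in large barcodes. In mid-size barcodes the log2 ratio was 2.30 (1.77 to 2.90) for Tap1 and 1.11 (0.81 to 1.43) for Tap2. Tapbp, the peptide-loading bridge, was at 29.3 and 63.5 CPM in small barcodes, a log2 ratio of 1.12 (1.01 to 1.22), at 30.7 and 66.6 CPM in mid-size barcodes, and at 17.9 and 47.5 CPM in large barcodes, a log2 ratio of 1.40 (0.87 to 1.97).

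Both immunoproteasome subunits were over 2-fold higher in GS_KO in all 4 sets. Psmb8 was at 43.8 CPM in control and 157 CPM in GS_KO in small barcodes, a log2 ratio of 1.84 (1.77 to 1.92). It was at 39.5 and 131 CPM in mid-size barcodes, and at 18.3 and 55.2 CPM in large barcodes, a log2 ratio of 1.58 (1.07 to 2.14). Psmb9 was at 20.8 and 78.6 CPM in small barcodes, a log2 ratio of 1.92 (1.81 to 2.03). It was at 17.7 and 74.0 CPM in mid-size barcodes, and at 11.9 and 37.7 CPM in large barcodes, a log2 ratio of 1.64 (1.02 to 2.35). The constitutive catalytic subunits Psmb5, Psmb6 and Psmb7 had log2 ratios of -0.36 (-0.75 to 0.02), -0.40 (-0.78 to -0.02) and -0.50 (-0.82 to -0.19) in large barcodes. All 3 were also below 0 in small and mid-size barcodes, with an interval that included 0 for Psmb5 in small barcodes. In Kupffer-marked barcodes Psmb6 and Psmb7 stood above 0, at 0.56 (-0.32 to 1.73) and 0.12 (-0.71 to 1.18), and Psmb5 at -0.30 (-1.07 to 0.65).

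Nlrc5 went up with barcode size in both libraries by more than any other of the 9 genes. It was at 3.26 CPM in control and 5.16 CPM in GS_KO in small barcodes, at 19.3 and 54.0 CPM in mid-size barcodes, and at 46.3 and 87.6 CPM in large barcodes. The log2 ratios were 0.66 (0.34 to 0.99), 1.48 (1.21 to 1.77) and 0.92 (0.57 to 1.28), and among those of 200 to under 300 UMIs the ratio was -0.27. From the smallest to the largest set Nlrc5 went up 14.2-fold in the control and 17.0-fold in GS_KO. Malat1, a nuclear RNA, went up over the same sets from 1709 to 19613 CPM in the control and from 1365 to 37630 CPM in GS_KO. B2m, H2-K1, H2-D1 and Psmb8 instead went down by more than 2-fold in each library, from 2.16-fold for H2-D1 in the control to 2.89-fold for B2m in GS_KO. Such a fall was not particular to these genes. Alb went down 1.94-fold in the control and 2.80-fold in GS_KO, and H2-Q10 1.89-fold and 2.11-fold. Tap1 was at 4.54 and 4.58 CPM in small and large barcodes of the control, and went up from 18.7 to 25.0 CPM in GS_KO, by 0.43 on the log2 scale (0.016 to 0.79). Malat1 also differed between the libraries within a set, with 7812 CPM in the control and 17706 CPM in GS_KO in mid-size barcodes, and its part in the ratios was not tested. Among barcodes with a Malat1 share of 1% to under 3%, the median log2 ratio of the 9 genes was 1.58 in mid-size barcodes and 1.79 in large barcodes, and that of B2m was 0.66 and 0.73. That restriction was chosen after seeing the data.

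**Figure D2:**
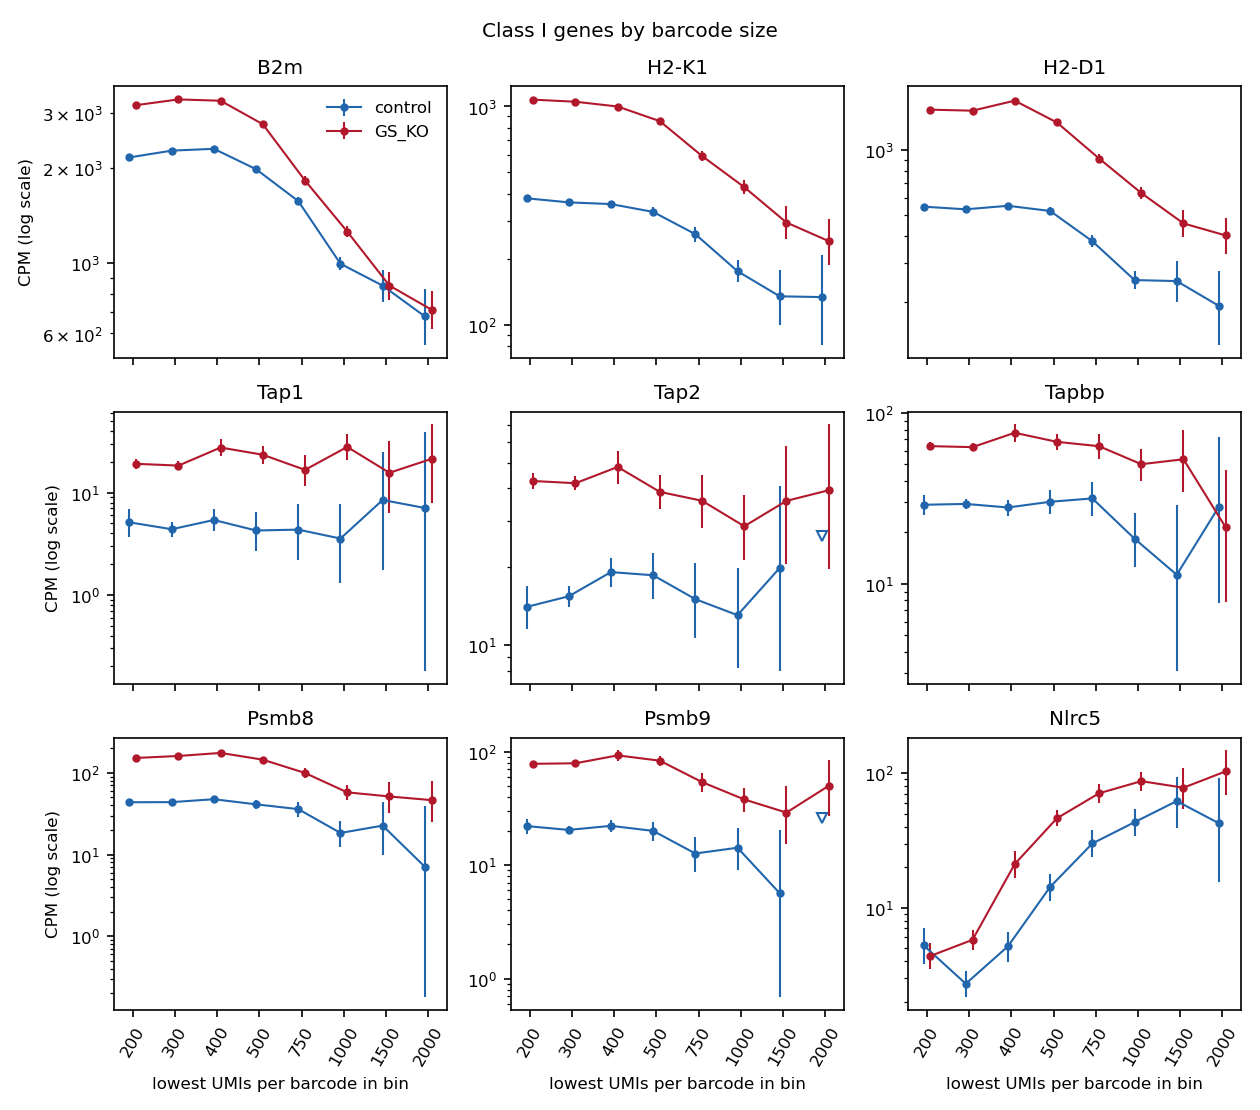
CPM (log scale) of each of the 9 genes in 8 bins of barcode size, control in blue and GS_KO in red, with bars for the 95% counting interval and open triangles at the upper limit of a bin with 0 UMIs. Nlrc5 goes up with barcode size in both libraries, while B2m and the heavy chains go down and the B2m lines meet at the largest sizes.

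Markers of some other cell types stood higher in GS_KO, as these genes did, and in large barcodes those of others stood lower. Cd74, which is the class II invariant chain, was at 24.8 CPM in control and 827 CPM in GS_KO in small barcodes, and at 19.7 and 515 CPM in large barcodes, and the Kupffer markers stood higher in GS_KO as given above. Of the other marker lists in large barcodes, plasma and B cell genes summed to 104 CPM (Ighm, Cd79a and Cd79b at 0) and 275 CPM, neutrophil genes to 0.458 CPM (S100a8, S100a9, Retnlg and Cxcr2 at 0) and 18.0 CPM, and T and NK cell genes to 3.21 and 6.55 CPM. Cholangiocyte genes summed to 0 and 15.6 CPM (Krt19, Krt7 and Epcam at 0 in both), and monocyte and dendritic cell genes to 1.37 and 6.96 CPM. Lower in GS_KO there were sinusoidal endothelial genes, at 114 and 96.6 CPM, and stellate cell genes, at 255 and 234 CPM. Erythroid genes were at 2.75 and 1.64 CPM, from 6 and 4 UMIs. In small barcodes each of these lists stood higher in GS_KO. Endothelial genes were at 146 and 190 CPM there, stellate genes at 312 and 342 CPM, and erythroid genes at 4.70 and 11.8 CPM. In mid-size barcodes endothelial genes (192 and 219 CPM) and erythroid genes (8.58 and 12.7 CPM) were higher, and stellate genes lower (513 and 466 CPM). The 12 hepatocyte genes were lower in GS_KO, summing to 79913 CPM in the control and 61255 CPM in GS_KO in mid-size barcodes. In large barcodes they summed to 58867 and 40088 CPM, and Alb was at 21383 and 15041 CPM. The part of all these markers in the ratios was not tested. Barcodes carrying them could be left out, which does not remove free RNA of the 9 genes from the rest. Barcodes with 2 or more marker UMIs of a non-hepatocyte list, or any UMI of Cd74, H2-Aa, H2-Ab1 or H2-Eb1, were removed. This left 1531 of 1703 large barcodes in the control and 1058 of 1834 in GS_KO, with Cd74 at 0 by that rule. The median log2 ratio of the 9 genes there was 1.24, and 7 of 9 were at least 2-fold higher, against 11.3% of the 9266 genes counted in the same barcodes. H2-K1 was then at 170.1 and 353 CPM, a log2 ratio of 1.05 (0.85 to 1.26), Psmb8 at 16.4 and 45.2 CPM, a log2 ratio of 1.45 (0.83 to 2.13), and B2m at 930 and 1005 CPM, a log2 ratio of 0.11 (0.011 to 0.21).

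Counted per barcode, more barcodes of the GS_KO library held a heavy chain UMI. Among large barcodes with no Kupffer marker UMI, each thinned to 1000 UMIs, 34.1% of 1609 held a UMI of H2-K1 or H2-D1 in the control (exact binomial 95% interval 31.8 to 36.5%) and 55.2% of 1441 in GS_KO (52.6 to 57.8%). Before thinning the shares were 39.3% and 64.6%, and no barcode was too shallow to thin. For B2m the thinned shares were 57.9% and 62.5%, and for Tap1, Tap2, Psmb8 and Psmb9 together 4.41% and 12.6%. Barcodes chosen this way still held unequal Cd74, 8.74 CPM (control) against 249 CPM (GS_KO). Their Malat1 was unequal too, 19761.5 CPM (control) against 39808.3 CPM (GS_KO). Shares were not counted after the wider removal of marked barcodes described above, and the part of other cells and of Malat1 in them was not tested. Class I genes are active in nearly all nucleated cells, so no cell type lacking them was at hand to set the free RNA level.

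In Kupffer-marked barcodes, as in the size sets, the 9 genes stood higher in GS_KO, but from fewer counts. H2-D1 was at 1020 CPM in control and 2170 CPM in GS_KO, a log2 ratio of 1.08 (0.83 to 1.36), and H2-K1 at 361 and 952 CPM, a log2 ratio of 1.39 (0.97 to 1.86). B2m was at 2204 and 3771 CPM, a log2 ratio of 0.77 (0.60 to 0.96). Psmb8 (9 and 188 UMIs) and Psmb9 (7 and 130 UMIs) had log2 ratios of 1.73 (0.85 to 2.95) and 1.54 (0.55 to 2.98). For the other 4 genes the interval included 0: Tap1 (2 and 27 UMIs) had a log2 ratio of 0.88 (-0.82 to 4.29), Tap2 (6 and 39 UMIs) 0.02 (-1.13 to 1.65), Tapbp (8 and 88 UMIs) 0.80 (-0.16 to 2.13) and Nlrc5 (2 and 35 UMIs) 1.25 (-0.41 to 4.65). A difference in these 4 genes was not detectable at this depth in the Kupffer-marked set. Cd74 was at 1819 and 8649 CPM in these barcodes.

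Within each library, Kupffer-marked barcodes were set against barcodes of at least 500 UMIs with no UMI of the 6 markers. H2-D1 was 2.47-fold higher in the marked barcodes of the control (2.05 to 2.93) and 2.42-fold higher in those of GS_KO (2.29 to 2.55). Psmb9 was 3.61-fold (1.34 to 7.13) and 3.29-fold (2.67 to 4.03) higher, and B2m 1.34-fold (1.18 to 1.50) and 1.97-fold (1.90 to 2.06). H2-K1 was 1.32-fold higher in the control, with an interval that includes no change (0.956 to 1.75), and 1.51-fold higher in GS_KO (1.39 to 1.63). Of the 9 genes, Nlrc5 alone was lower in the marked barcodes, by 0.33 and 0.50 on the log2 scale. Its interval included 0 in the control (-3.70 to 1.22) but not in GS_KO (-1.06 to -0.02). Malat1 was lower in the marked barcodes too, at 5992 against 10457 CPM in the control and 8832 against 25384 CPM in GS_KO. The marked barcodes were also smaller, with medians of 574 against 664 UMIs in the control and 605 against 679 UMIs in GS_KO. The part of barcode size and Malat1 in these differences was not tested. At least 2-fold higher in marked barcodes were 6 of 9 genes in the control, against 25.1% of the 10999 genes counted, and 4 of 9 in GS_KO, against 19.0% of 11444. Of the 6 in the control, Tap1 (2 UMIs), Tapbp (8 UMIs) and Psmb8 (9 UMIs) had intervals that include no change. The median log2 difference of the 9 genes was 1.29 and 0.98, beside medians over all genes of 0.29 and 0.05.

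**Figure D3:**
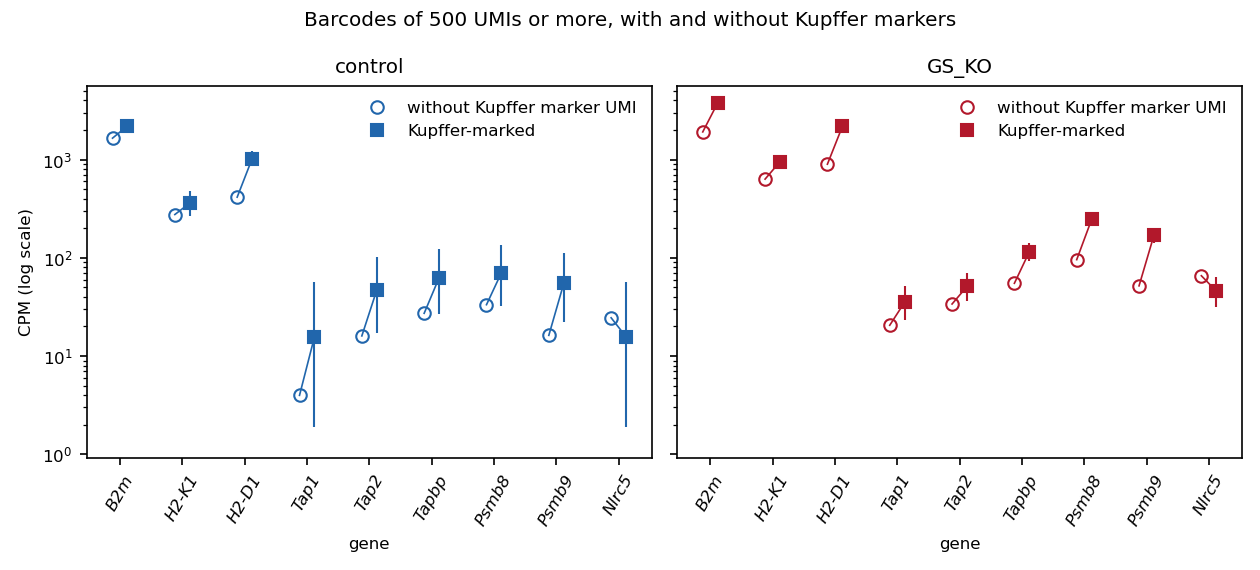
CPM (log scale) of the 9 genes in barcodes of at least 500 UMIs without a Kupffer marker UMI (open circles) and in Kupffer-marked barcodes (squares, with their 95% counting interval) of each library. In both libraries 8 of the 9 genes are higher in the marked barcodes and Nlrc5 is lower.

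Barcodes carrying markers of other cells were also read at 500 UMIs or more, in those with no Kupffer marker UMI. The 4-UMI rule gave 71 sinusoidal endothelial-marked barcodes in the control and 50 in GS_KO, 283 and 139 stellate-marked barcodes, and 38 and 91 plasma and B cell-marked barcodes. H2-D1 was at 597 and 1521 CPM in the endothelial-marked, 798 and 1645 CPM in the stellate-marked, and 659 and 1248 CPM in the plasma and B cell-marked barcodes. H2-K1 was at 253 and 746 CPM in the endothelial-marked and 311 and 912 CPM in the stellate-marked barcodes. Each of these values was higher in GS_KO. B2m was at 1575 and 3014 CPM in the endothelial-marked, 1793 and 2706 CPM in the stellate-marked and 3224 and 3690 CPM in the plasma and B cell-marked barcodes. GS_KO stellate-marked barcodes still had Cd74 at 525 CPM, against 90.4 CPM in those of the control. Alb was at 26858 and 23648 CPM in the stellate-marked and 28659 and 26808 CPM in the endothelial-marked barcodes, so these hold hepatocyte RNA too, and the part of free RNA in these values was not tested.

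Related genes were read from lists. Of 17 other class I heavy chain genes listed, 15 are in the files and 10 had at least 20 UMIs in large barcodes; 5 of these 10 were at least 2-fold higher in GS_KO (12.8% of all genes), none was 2-fold lower, and their median log2 ratio was 1.30. H2-Q6 had the highest log2 ratio, 2.86 (1.53 to 4.96), from 4 and 36 UMIs. H2-Q7 was at 11.9 and 52.8 CPM, a log2 ratio of 2.13 (1.53 to 2.82), H2-Q4 at 26.1 and 81.9 CPM, a log2 ratio of 1.64 (1.22 to 2.10), and H2-T22 at 9.16 and 33.6 CPM, a log2 ratio of 1.85. H2-Q1 stood at 3.21 and 11.0 CPM. H2-Q10, which encodes a secreted heavy chain of liver, was at 379.9 and 457 CPM, a log2 ratio of 0.27 (0.14 to 0.40), and at 720 and 966 CPM in small barcodes, a log2 ratio of 0.42. Its intervals overlapped neither those of H2-K1 nor those of H2-D1 in these sets. Fcgrt, the neonatal Fc receptor heavy chain, was lowest at -0.30 (-0.71 to 0.10).

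Of the 10 peptide supply genes, none was 2-fold apart in large barcodes and the median log2 ratio was 0.29. Of all genes counted there, 12.8% were at least 2-fold higher and 5.60% lower, so none of 10 is near the background. In Kupffer-marked barcodes 3 of the 10 were at least 2-fold higher, beside 12.1% of all genes counted, with a median of 0.03. Psme1 and Psme2, subunits of the proteasome activator PA28, had log2 ratios of 0.55 and 0.54 in small barcodes, and of 1.28 and 1.26 in Kupffer-marked barcodes. Psmb10, the third interferon-inducible catalytic subunit, was at 45.0 and 86.1 CPM in small barcodes, a log2 ratio of 0.93 (0.85 to 1.02), below the intervals of Psmb8 and Psmb9. In large barcodes it was at 23.4 and 31.5 CPM, a log2 ratio of 0.43 (-0.10 to 0.97), and in Kupffer-marked barcodes at 47.1 and 140.1 CPM, a log2 ratio of 1.47 (0.40 to 3.05), which overlaps the intervals of Psmb8 and Psmb9 there. The 6 loading chaperones had a median log2 ratio of 0.25 in large barcodes, with none 2-fold apart, which for 6 genes is also near the background. They ran from -0.19 for calnexin (Canx) to 0.82 for Tapbpl, a peptide editor related to tapasin.

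Among 14 class I regulators with at least 20 UMIs in large barcodes, 3 were at least 2-fold higher in GS_KO, 1 was 2-fold lower, beside 12.8% and 5.60% of all genes counted, and the median log2 ratio was 0.68. Irf1, an interferon-inducible activator of class I genes, was at 16.0 and 147 CPM, a log2 ratio of 3.18 (2.69 to 3.74), and at 23.6 and 106 CPM in small barcodes. With the marked barcodes removed as above, Irf1 still stood at 14.9 and 146 CPM. Ciita, the class II transactivator, had a log2 ratio of 2.46 (0.90 to 5.03) from 3 and 21 UMIs. Rfxap, a subunit of the RFX complex that binds class I and class II promoters, was lowest, at 14.2 and 5.73 CPM, a log2 ratio of -1.28 (-2.33 to -0.36).

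Of the 7 interferon receptor and signalling genes with at least 20 UMIs, 2 were at least 2-fold higher in large barcodes, beside 12.8% of all genes counted: Ifnar2 at 66.0 and 191 CPM and Ifngr1 at 15.1 and 31.1 CPM. Ifngr2 stood at 13.7 and 26.2 CPM. Ifng had 0 UMIs in both libraries in mid-size barcodes, in large barcodes and in the Kupffer-marked barcodes, and 0 and 2 UMIs in small barcodes. Of 14 interferon-gamma induced genes, 9 were at least 2-fold higher in small barcodes (13.2% of all genes), with a median log2 ratio of 2.00. In Kupffer-marked barcodes 11 of 14 were (12.1% of all genes), with a median of 1.79. In large barcodes 9 had at least 20 UMIs and 5 of these were at least 2-fold higher (12.8% of all genes), with a median of 1.02. Psmb10 is in this list and in the peptide supply list. Cxcl9 and Cxcl10, chemokines that attract T cells, went from 3 to 72 and from 4 to 93 UMIs there, and Gbp6, an interferon-induced GTPase, from 8 to 70 UMIs. Igtp, another such GTPase, was lowest, with a log2 ratio of 0.36 (-0.30 to 1.04).

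**Figure D4:**
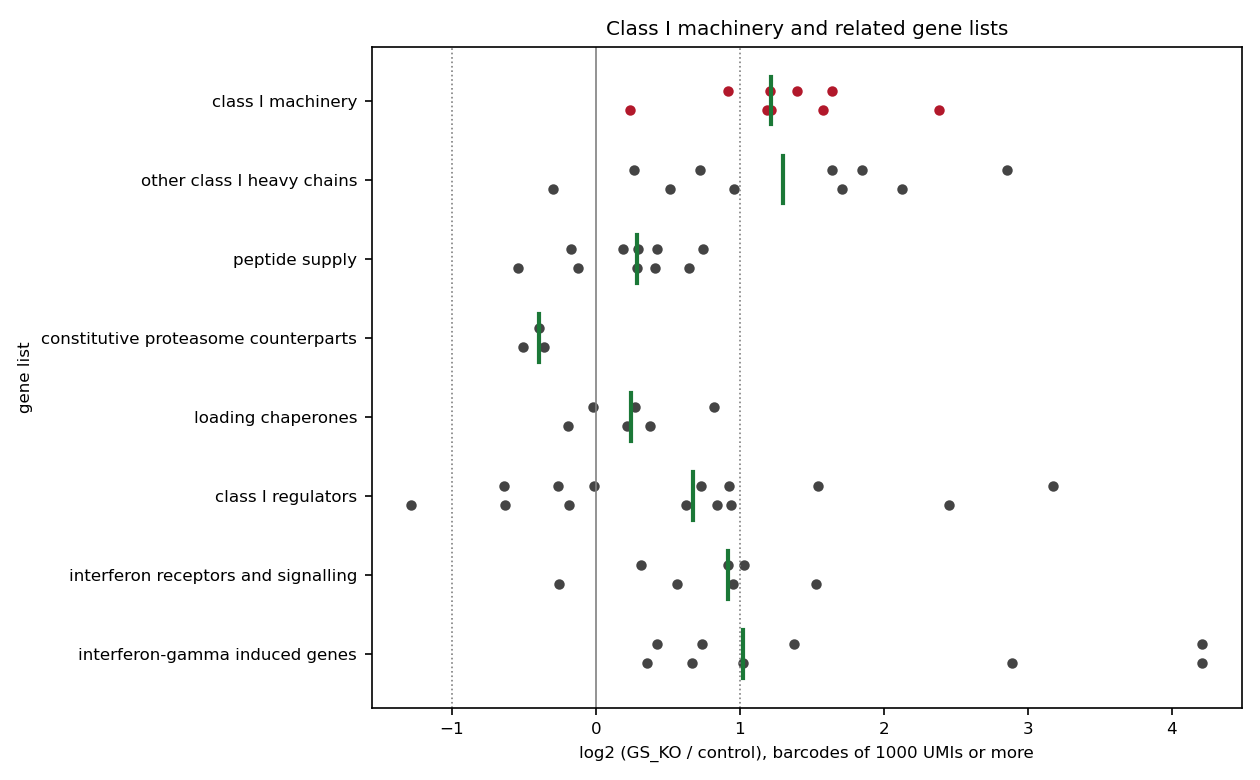
Log2 ratio of GS_KO over control in large barcodes for the 9 class I genes (red) and for the genes of 7 related lists with at least 20 UMIs (grey), each point a gene and each green bar a list's median. The constitutive proteasome subunits lie left of 0, and the peptide supply genes and loading chaperones lie between the dotted 2-fold lines.

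Genes with a pattern nearest to the mean of the 9 genes were taken over the 8 sums of library and set, by the root mean square distance of log2(CPM + 5) after centring each gene, among 6178 candidates. The 10 nearest genes were Pnp, Manf, Rab32, H2-Q4, Smagp, H2-T23, Cited2, Eif4e3, Fam124a and Irf7, with distances from 0.163 for Pnp to 0.258 for Irf7. H2-Q4 and H2-T23 are class I heavy chains. Of the 9 genes themselves, Tapbp lay nearest the mean, at 0.128, and Nlrc5 farthest, at 1.24, with 5373 candidates nearer than it. B2m lay at 0.504, with 215 candidates nearer.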

How the data were processed

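The authors deposited 1 matrix of raw UMI counts per library, per the file headers with Cell Ranger 8.0.0, and on mm10 per the submitters' processing notes. For the annotation release, intron counting, strand use and barcode selection, details are not given in the sources used here. Deposited counts are not normalized. Totals were 61635695 UMIs in the control and 57973740 in GS_KO. Counts were summed over barcodes and divided by the set's total (CPM). Ratios are log2, with 0.5 counts added to each sum, and have exact conditional intervals, CPM values have exact Poisson intervals and shares exact binomial (Clopper-Pearson) intervals, all at 95%. The intervals do not cover free RNA or PCR. A gene counted as apart at 2-fold or more. No doublet caller was run. The ratio code was tested on simulated data. Python 3.11.15, numpy 2.4.6, scipy 1.17.1 and pandas 2.3.3 were used. The members and lists were chosen with earlier results of these data known. Of each list, the highest and lowest ratio at 1000 UMIs or more and genes 2-fold apart could be named, and H2-Q10, H2-T23, Psmb6, Psmb10, Psme1, Psme2, Ifngr2 and Ifng were named after their values were seen. The motifs, the promoters shown and the sets marked for endothelial, stellate and plasma or B cells were also chosen after seeing the data. Alternatives changed the scaling, the added count, the low-count filter, the weighting of barcodes, the size limits, the marker rule and the barcodes left out, and 1 subtracted free RNA, taken per barcode as the median UMIs of small barcodes with their summed profile. The values of 1 gene of the related lists are not reported here.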

Additional observations from a re-analysis of the deposited data

Results flagged for a closer look

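Barcodes under 200 UMIs belong to no set above, and 8 of the 9 genes stood higher in GS_KO there too, which is why they are listed. The log2 ratios were 0.59 for B2m, 1.48 for H2-K1, 1.46 for H2-D1, 1.56 for Tap1, 0.72 for Tap2, 1.63 for Tapbp, 2.13 for Psmb8 and 2.11 for Psmb9. B2m was lowest of these 8, and 87.0% of the genes counted in these barcodes had a lower ratio than B2m. For Nlrc5 35.4% did. The interval was 0.51 to 2.94 for Tap1 (8 and 39 UMIs) and 0.12 to 1.40 for Tap2 (30 and 79 UMIs). H2-K1 was at 409 and 1139 CPM and Psmb8 at 37.1 and 164 CPM in these barcodes. For Nlrc5, with 8 and 10 UMIs, the log2 ratio was -0.35 (-1.83 to 1.21). The part of free RNA in these values was not tested.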

How the results depend on the processing

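No paired analysis was possible because each group has 1 library and no result comes from a test. Over the alternatives run, the median log2 ratio of the 9 genes ran from 1.49 to 1.59 in small barcodes (8 settings), 1.18 to 1.58 in mid-size barcodes (10), 1.03 to 1.79 in large barcodes (12) and 0.65 to 1.48 in Kupffer-marked barcodes (10). Having no interval of its own, it is listed here where it left the counting interval of the gene at the median, as with median-of-ratios scaling (1.59 in small barcodes and 1.27 in mid-size barcodes). In mid-size barcodes it was 1.27 without barcodes holding a Kupffer marker UMI, 1.20 without barcodes marked as other cells, 1.18 with free RNA taken off and 1.58 at a Malat1 share of 1% to under 3%. In large barcodes it was 1.03 for 1500 UMIs or more and 1.79 at that Malat1 share. In Kupffer-marked barcodes it was 0.77 with 2 counts added, 1.48 as a mean of barcode CPM and 0.65 for 1000 UMIs or more. There 3 genes were 2-fold higher, and 2 when 20 UMIs were asked of each library, a rule that 3 of the 9 genes met. Of 353 values of single genes, 297 stayed within the gene's own interval, 53 left it with the same sign (9 in small, 19 in mid-size, 21 in large and 4 in Kupffer-marked barcodes) and 3 reversed: Nlrc5 at 200 to under 300 UMIs (-0.27), B2m at 1500 UMIs or more (-0.0073) and Tapbp at 2000 UMIs or more (-0.46, from few counts). The cause was not tested. In Kupffer-marked barcodes median-of-ratios scaling had a shift of -0.13 (log2) from CPM, and the median of the 9 genes was then 1.21. Leaving out shared barcodes and the Malat1 restriction were added after seeing the data. Each library is 1 mouse, and low counts limit Tap1, Tap2, Tapbp and Nlrc5 in Kupffer-marked barcodes.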
